A study of Mus musculus with 6 samples.

Results

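The genes of the cytosolic ribosomal proteins were examined in donor hematopoietic stem and progenitor cells (HSPCs) of WT and Hemgn-/- mice at 6 h after bone marrow transplantation (BMT). They were chosen by name alone, as protein-coding genes whose symbol is Rps or Rpl with a number, Rpsa, or Rplp0 to Rplp2, without the S6 kinases and without pseudogenes. The name rule found 86 genes in the mouse annotation, and 84 of them were among the 24965 genes of the deposited table, whereas Rpl10l and Rpl39l were not in it. Of the 84 genes, 31 encode proteins of the small (40S) subunit and 46 proteins of the large (60S) subunit. Another 6 are paralogs of such genes (Rpl3l, Rpl7l1, Rpl22l1, Rpl36al, Rps27l and Rps27rt). The remaining 1, Rps19bp1, shares the name but encodes a protein that binds Rps19 rather than a part of the ribosome.

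Marrow cells of CD45.2+ donors, 20000000 per recipient, were transplanted into CD45.1+ mice irradiated with a split dose of 9 Gy, and donor cells were sorted from the recipients as 3 WT and 3 Hemgn-/- libraries. The Hemgn-/- mice lack Hemgn in the whole body after editing with zinc finger nucleases on a C57BL/6 background. The donors were young adults, and the WT donors were matched littermates, according to the methods. The sample labels call the sorted cells lineage-negative and Sca-1-positive, the series' design text and the methods add c-Kit, and how many mice entered each library was not given in the sources used here. The methods name Smart-Seq2 cDNA and the labels a TruSeq kit for the libraries, and the values are FPKM, fragments scaled by gene length and library depth.

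Each cytosolic ribosome holds a single copy of nearly every ribosomal protein, so the proteins are made in matched amounts and their genes are mostly expressed together. The small subunit reads the mRNA, and the large subunit forms the peptide bond. Most of these mRNAs begin with a C followed by a run of pyrimidines, the 5′ terminal oligopyrimidine (TOP) motif, through which mTOR and Larp1 set their translation. Hematopoiesis is sensitive to this supply, since loss of an allele of Rps19, Rpl5, Rpl11 and others causes Diamond-Blackfan anemia, in which red cell precursors fail, and protein synthesis in stem cells is kept low.

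Hemgn, the disrupted gene, was at 5.64, 2.96 and 4.68 FPKM in WT and at 0.755, 0.913 and 1.60 FPKM in Hemgn-/- replicates 1 to 3. The groups did not overlap, and the log2 fold change was −1.37 (SE 0.23, Benjamini-Hochberg adjusted p = 0.0114 by limma), though the adjusted p was 0.0613 with all genes above 0 FPKM tested and 0.0503 without WT replicate 3. The libraries held 23668015 to 28897360 fragments, recovered from the steps of the FPKM values. Hba-a1, Ngp and Cd79a, transcripts of erythroid cells, neutrophils and B cells, were at up to 328, 46692 and 552 FPKM, although lineage-positive cells were to be removed by the sort. Kit was at 6.14 to 7.24 FPKM in WT and 5.50 to 5.90 FPKM in Hemgn-/- libraries. Ly6a, the gene of Sca-1, was at 8.27 to 10.2 and 11.4 to 17.3 FPKM. Neither was called, though the groups did not overlap. Of 9 tested HSPC markers, 6 had log2 fold changes above 0 and 3 below. Only Cd34 was called, higher (0.45, adjusted p = 0.0427 from limma), against 4.37% of all genes. The summed FPKM of 10 HSPC markers was 28.6 to 35.6 in WT and 37.5 to 46.4 in Hemgn-/- libraries. The summed FPKM of 10 erythroid markers was 462 to 550 in WT and 32.4 to 51.7 in Hemgn-/- libraries, that of 10 neutrophil markers 74425 to 80446 and 48767 to 53871, and that of 7 B cell markers 1160 to 1221 and 1380 to 1554. Hba-a1 and Hbb-bs made up most of the erythroid sum, and 5 of 9 tested erythroid markers were called lower, against 2.09% of all genes. Car1, Epor and Klf1 overlapped between the groups (log2 fold changes −0.05, 0.06 and −0.10). Ngp made up most of the neutrophil sum, and 5 of 10 neutrophil markers were called lower. Mmp8 (log2 fold change 0.007), Ctsg, S100a8 and S100a9 overlapped between the groups. Of 7 B cell markers, 3 were called higher, against 4.37% of all genes, while Cd79a, Ebf1 (−0.04) and Vpreb1 (−0.39) overlapped. The eosinophil genes Epx and Prg2 were lower (log2 fold changes −2.72 and −1.99) and the T cell gene Cd3d higher (1.28), all called by limma. Of 8 eosinophil and basophil markers, 3 were called lower and 0 higher, against 2.09% and 4.37% of all genes. Of 7 T and NK cell markers, 2 (Cd3d and Ncr1) were called higher and 0 lower. Cd3e, Cd3g, Klrb1c, Trbc2 and Nkg7 were not called (log2 fold changes 0.25, 0.36, 0.34, 0.13 and −0.04). In these bulk libraries a change in the number of cells of a type and a change of RNA per cell cannot be told apart, and the part of the cell mixture in any result below was not tested.

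Together the 84 genes took up 3221, 3856 and 3060 FPKM in WT and 2858, 3816 and 3297 FPKM in Hemgn-/- replicates 1 to 3. The groups overlapped, with means of 3379 ± 421 and 3323 ± 479 FPKM (SD, n = 3 each). These sums were 0.816% to 1.04% of all FPKM in WT and 0.831% to 1.07% in Hemgn-/- libraries. The highest 8 genes held 66.3% of the sum, counted over the means of all libraries.

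Although the core proteins are mostly used in equal numbers, the deposited levels per gene length of their genes spanned from 0.305 FPKM for Rpl39 to 618 FPKM for Rpl4. Fragments of most low genes came out whole with the length of all annotated exons of a gene. That length was 3526 bases for Rpl35a, whose main transcript has 519, and 383 bases for both in Rpl36. The part of this length in the spread of levels was not tested. Over all 84 genes the lowest was the paralog Rpl3l at 0.275 FPKM, and the median was 9.46 FPKM. Mean levels were above 100 FPKM for 8 genes, from 10 to 100 FPKM for 33, from 1 to 10 FPKM for 34 and under 1 FPKM for 9, of which 8 encode core proteins. Rpl13a (0.155 to 0.481 FPKM), Rpl24 (0.336 to 0.721 FPKM), Rpl28 (0.253 to 0.602 FPKM), Rpl39 (0.0762 to 0.428 FPKM) and Rpl3l (0 to 0.571 FPKM) stayed at or under 1 FPKM in every library and were not tested. All but Rpl3l encode core proteins of the large subunit. Rpl3l is a paralog known from striated muscle.

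**Figure D1:**
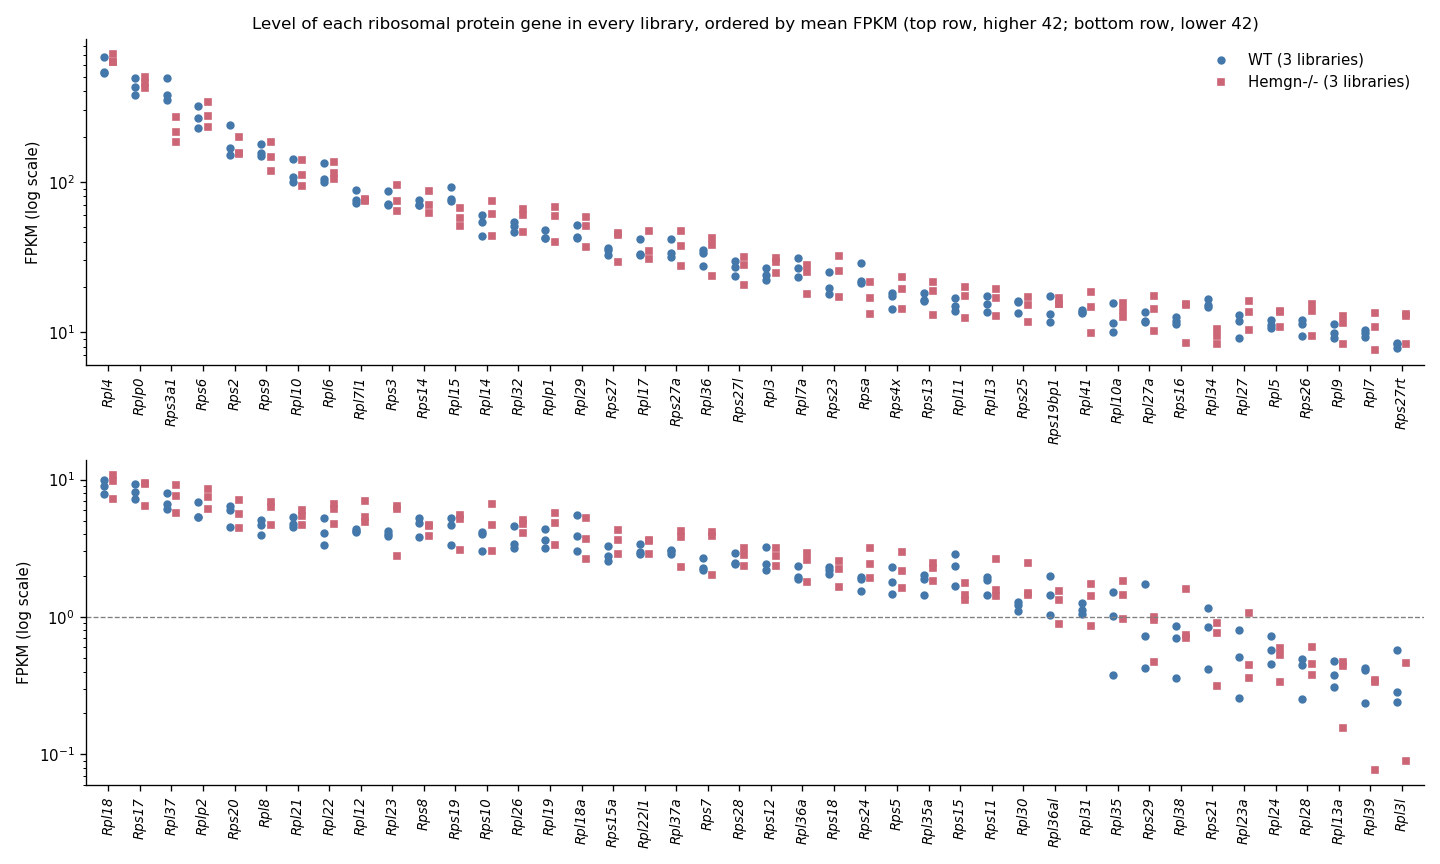
FPKM (log axis) of each of the 84 ribosomal protein genes in each of the 3 WT (circles) and 3 Hemgn-/- (squares) libraries, ordered by the mean over all libraries, with a dashed line at 1 FPKM. Levels ran from 618 FPKM for Rpl4 to 0.275 FPKM for Rpl3l, 1 value of 0 (Rpl3l in Hemgn-/- replicate 3) is not drawn on the log axis, and the squares of Rps3a1, Rpl15 and Rpl34 lie below their circles.

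Among the 84 genes, Spearman's rho of the mean FPKM was 0.42 with the length of the coding sequence, 0.20 with the share of 150-base windows (the read length) found unchanged in a transcript of another locus, and 0.084 with the number of annotated copies. These correlations are across genes of the same 6 libraries, and genes are not independent replicates. Ribosomal protein genes have left many processed copies in the genome, and 81 of the 84 shared at least 1 exact 50-base window of coding sequence with a gene elsewhere, with a median of 9 such genes. Rpl7a, with 123, had 65.2% of its 150-base windows in common with another locus, and Rpl4, with 1, had 0.0720%. Where reads match more than 1 place, the authors' counting may drop or divide them, so levels of such genes are uncertain. Among the core genes not tested, the share of such windows was 0% for Rpl13a and Rpl39, 27.7% for Rpl28 and 55.3% for Rpl24. This share counts exact matches only, and Rpl13a and Rpl39 still shared 50-base coding windows with 5 and 8 genes elsewhere.

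The 5 highest genes, Rpl4, Rplp0, Rps3a1, Rps6 and Rps2, stood for both subunits. Rpl4, a core protein near the exit tunnel of the large subunit, was at 534, 675 and 537 FPKM in WT and 631, 708 and 625 FPKM in Hemgn-/- libraries. Rplp0, the base of the stalk that recruits elongation factors, was at 428, 494 and 380 FPKM in WT and 424, 497 and 457 FPKM in Hemgn-/- libraries. Rps6, the phosphorylated target of the S6 kinases, was at 267, 320 and 230 FPKM in WT and 234, 339 and 274 FPKM in Hemgn-/- libraries. Rps2, a protein at the mRNA entry of the small subunit, was at 168, 241 and 152 FPKM in WT and 153, 199 and 156 FPKM in Hemgn-/- libraries. In these 4 genes the groups overlapped, and the log2 fold changes were 0.18 (SE 0.10) for Rpl4, 0.09 (SE 0.10) for Rplp0, 0.05 (SE 0.15) for Rps6 and −0.13 (SE 0.17) for Rps2. Only Rps3a1 of the 5 passed the test, as given next.

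Whether ribosomal protein transcripts differed between Hemgn-/- and WT HSPCs was tested gene by gene, with limma on log2(FPKM + 1) over all 13739 genes above 1 FPKM in at least 1 library. Fold changes are Hemgn-/- over WT on this scale, on which the changes of low genes come out too small. Of the 84 genes, 79 passed this filter on low values. None was higher in Hemgn-/- HSPCs at an adjusted p under 0.05, and 2 were lower, Rps3a1 and Rpl34. Over all genes tested, 4.37% were called higher and 2.09% lower, 6.46% in all, whereas 2.53% of the 79 ribosomal protein genes were called. At an unadjusted p under 0.05, 3 of the 79 were higher (Rpl12, Rps27rt and Rpl22) and 4 lower (Rps3a1, Rpl34, Rpl15 and Rpsa), against 15% and 6.46% of all genes. With voom on the recovered fragments, 0 of the 79 were higher and 3 lower at an adjusted p under 0.05, against 718 and 331 of all 13723 genes.

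The median log2 fold change of the 79 genes was 0.086, close to the 0.087 of all genes tested, and 61 of the 79 lay above 0, against 63.0% of all genes. The 31 genes of the small subunit had a median of 0.041 with 21 above 0, and the 42 tested genes of the large subunit a median of 0.13 with 37 above 0. The scaling between libraries moved these values together with those of all genes. With median-ratio scaling the median was −0.0089 for the ribosomal protein genes and 0.0068 for all genes, with 37 of the 79 above 0, and with FPKM totals made equal it was 0.16 for both. A single library also moved the median, which was 0.24 without Hemgn-/- replicate 1 and 0.0028 without Hemgn-/- replicate 2, while that of all genes was 0.090 and 0.084. The median was 0.15 without WT replicate 2. The standard error of a gene's log2 fold change had a median of 0.17 among the ribosomal protein genes.

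**Figure D2:**
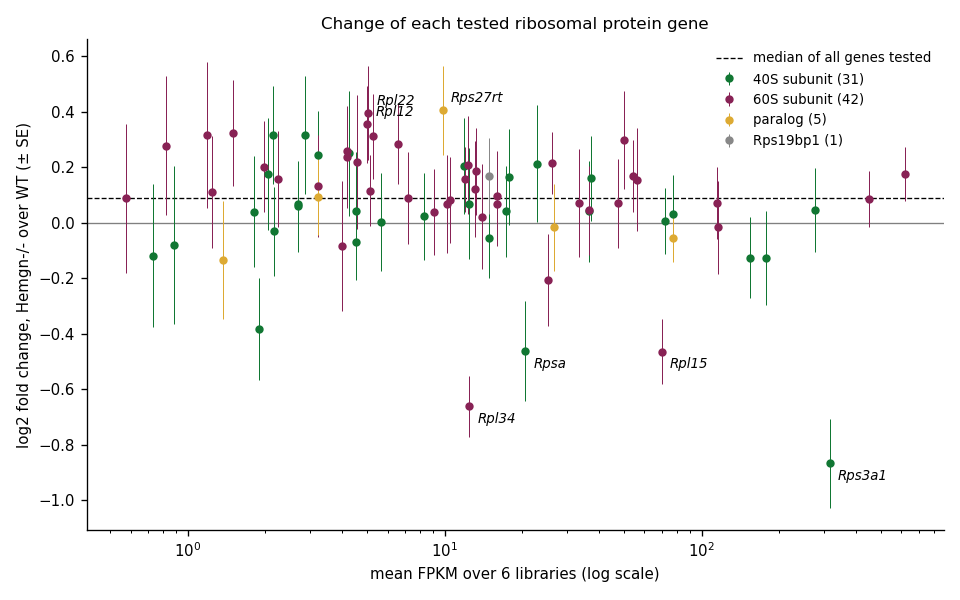
Log2 fold change of Hemgn-/- over WT (vertical axis, points with SE as bars) against the mean FPKM over 6 libraries (log axis) for the 79 tested ribosomal protein genes, colored by subunit, with the median of all genes as a dashed line. Most points lie within 0.4 of 0, and Rps3a1 (−0.87) and Rpl34 (−0.66) are the lowest.

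Rps3a1 (ENSMUSG00000028081, chromosome 3 from 86137940 to 86142702, minus strand, GRCm38) encodes eS1, a protein of the small subunit that binds near the mRNA exit. It was at 381, 492 and 350 FPKM in WT and at 183, 272 and 215 FPKM in Hemgn-/- libraries. Every Hemgn-/- library was below every WT library. The log2 fold change was −0.87 (SE 0.16, adjusted p = 0.0158 from limma). The call was lost without Hemgn-/- replicate 3 (adjusted p = 0.0685 from limma), with all genes above 0 FPKM (0.0802) and without a variance trend (0.0722).

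Rps3a1 has intronless copies. Rps3a2 (chromosome 14 from 88123017 to 88123808, minus strand), annotated as a processed pseudogene, is a single exon. Over the 792 bases that Rps3a2 shares with the Rps3a1 coding sequence they differ at 4 bases, an identity of 99.5%. With position 1 at the A of the Rps3a1 start codon and the Rps3a1 base first, the differences are T216C, T534C, A645T and T668C. A stretch of 90 bases (coding bases 579 to 668) that holds A645T and T668C is shown on the coding strand, to let a reader see how few bases separate reads of both loci. In Rps3a1 it lies in exon 5 of 6 at chr3:86138488-86138577, and in Rps3a2 at chr14:88123141-88123230. The capitals mark the bases that differ.
Rps3a1: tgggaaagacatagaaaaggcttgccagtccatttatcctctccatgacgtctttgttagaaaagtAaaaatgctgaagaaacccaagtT
Rps3a2: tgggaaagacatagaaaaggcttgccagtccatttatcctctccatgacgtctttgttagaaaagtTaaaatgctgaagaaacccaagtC

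Rps3a2 was at 2.24, 2.32 and 1.5 FPKM in WT and at 157, 227 and 197 FPKM in Hemgn-/- libraries (log2 fold change 6.00, SE 0.16, adjusted p = 4.67e-07 from limma). Rps3a3 (chromosome 13), with 9 differences over 795 bases, was at 0.319, 0.541 and 0.318 FPKM in WT and at 3.16, 4.23 and 3.92 FPKM in Hemgn-/- libraries (log2 fold change 1.77, adjusted p = 0.000954 from limma). Both copies were higher in every Hemgn-/- library, in the opposite direction to the gene itself. Rps3a3, under 1 FPKM in every WT library, passed the filter only through Hemgn-/- libraries. In FPM (fragments per 1000000 fragments of the library), Rps3a1 went from a mean of 398 in WT to 218 in Hemgn-/- libraries, a difference of −180, while both copies together went from 1.91 to 156, a difference of 154. The copies made up 0.421% to 0.542% of the summed fragments in WT and 40.8% to 43.0% in Hemgn-/- libraries. Summed with both copies, Rps3a1 was at 374, 483 and 343 FPM in WT and 306, 448 and 369 in Hemgn-/- libraries. These sums overlapped between the groups, with a log2 fold change of −0.10 (SE 0.16, adjusted p = 0.760 from limma), so the sum of the gene and its copies was not called.

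Rpl34 (ENSMUSG00000062006, chromosome 3 from 130726831 to 130730398, minus strand) encodes eL34 of the large subunit. It was at 15.1, 16.7 and 14.6 FPKM in WT and at 8.38, 10.5 and 9.44 FPKM in Hemgn-/- libraries. The groups did not overlap, with 942 to 1131 fragments in WT and 608 to 725 in Hemgn-/- libraries. The log2 fold change was −0.66 (SE 0.11, adjusted p = 0.0103 from limma). Its adjusted p stayed under 0.05 in every alternative run, from 0.00559 to 0.0471. Rpl34-ps1 (chromosome 6 from 71124610 to 71124963, plus strand), a processed pseudogene with 2 differences in 354 coding bases, was at 4.89, 5.74 and 5.10 FPKM in WT and 9.06, 14.0 and 13.1 FPKM in Hemgn-/- libraries (log2 fold change 1.05, adjusted p = 0.00723 from limma). The copy gained 2.41 FPM on average and Rpl34 lost 16.0. Summed with this copy, Rpl34 still fell, by 0.52 on the log2 scale (SE 0.11, adjusted p = 0.0331 from limma).

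Rpl15 and Rpsa, described because their unadjusted p was under 0.05, did not pass the test over all genes. Rpl15, a large subunit protein mutated in some families with Diamond-Blackfan anemia, was at 74.5, 92.2 and 76.8 FPKM in WT and at 51.1, 67.0 and 57.7 FPKM in Hemgn-/- libraries. Its groups did not overlap, and the log2 fold change was −0.47 (SE 0.12, adjusted p = 0.0534 from limma). The adjusted p ran from 0.0203 to 0.164 over the alternatives, on either side of 0.05, and the log2 fold change was −0.46 after adding its 3 named copies. Rpsa, a small subunit protein that is also known as the laminin receptor, was at 21.9, 28.7 and 21.1 FPKM in WT and 13.2, 21.6 and 16.9 FPKM in Hemgn-/- libraries. Its groups overlapped, since Hemgn-/- replicate 2 lay above WT replicate 3, and the log2 fold change was −0.46 (SE 0.18, adjusted p = 0.182 from limma). Rpsa-ps10 (chromosome 3), a copy with 6 differences in 885 bases, was at 0.955, 0.883 and 0.938 FPKM in WT and 14.2, 22.7 and 15.6 FPKM in Hemgn-/- libraries (adjusted p = 2.88e-05 from limma). This copy passed the filter only through Hemgn-/- libraries. Summed with 6 named copies, the log2 fold change of Rpsa was −0.13 (adjusted p = 0.705 from limma).

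**Figure D3:**
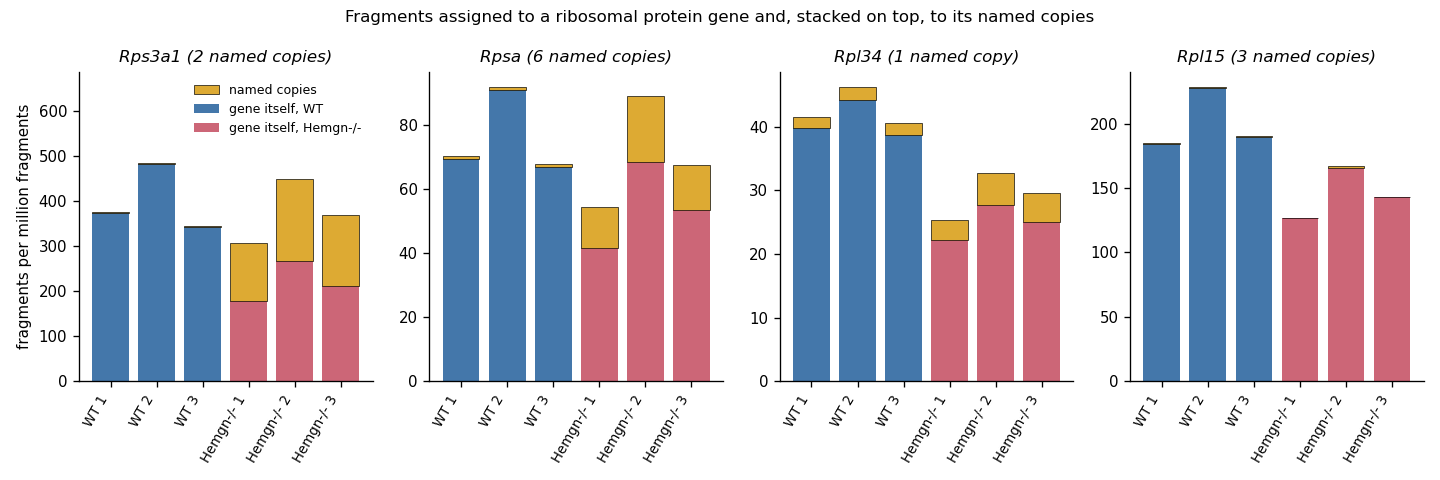
FPM in each library for Rps3a1, Rpsa, Rpl34 and Rpl15 (blue for WT, red for Hemgn-/- libraries) with the fragments of their named copies stacked on top in yellow, each panel on its own axis from 0. The copies of Rps3a1 held 40.8% to 43.0% of the sum in Hemgn-/- libraries and at most 0.542% in WT, while for Rpl34 and Rpl15 the sums of all Hemgn-/- libraries stayed below those of all WT libraries.

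In all, 434 annotated pseudogenes of the table shared coding sequence with 73 of the ribosomal protein genes, and 156 of these copies were tested. At an adjusted p under 0.05, 6 were higher in Hemgn-/- HSPCs and 1 was lower (percent called over all genes 4.37% and 2.09%). Beside the 4 copies above, the higher ones were Rpl10-ps2 and Rpl31-ps13. Rpl10-ps2 was listed at 0, 0.848 and 0 FPKM in WT and at 8.59, 10.4 and 20.3 FPKM in Hemgn-/- libraries, whereas Rpl10 itself, among the last core proteins to join the large subunit in the cytoplasm, was at 108, 142 and 99.2 FPKM and at 93.8, 141 and 112 FPKM. Rpl31-ps13 was listed at 0, 1.24 and 0 FPKM in WT and at 2.12, 2.83 and 3.48 FPKM in Hemgn-/- libraries. Rps3a3, Rpsa-ps10 and Rpl10-ps2 were under 1 FPKM in every WT library and passed the filter only through Hemgn-/- libraries. For these copies the filter itself favored the direction, so their calls and the counts by direction are no separate support for it. Rpl28-ps3 was the lower one, at 6.13, 4.77 and 6.79 FPKM in WT and 3.43, 3.31 and 2.47 FPKM in Hemgn-/- libraries, above the level of Rpl28 itself in each of them. A difference in genome sequence between the donor groups was not tested.

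No gene was called higher, and the 2 highest log2 fold changes were those of Rps27rt (0.41) and Rpl22 (0.40). Rps27rt, an intronless gene whose coding sequence of 255 bases is identical to that of Rps27, was at 8.47, 7.84 and 8.39 FPKM in WT and 8.38, 12.8 and 13.1 FPKM in Hemgn-/- libraries. Hemgn-/- replicate 1 lay within the WT range, and without it Rps27rt had a log2 fold change of 0.60 (adjusted p = 0.0259 from limma). It was then, with Rplp1, 1 of 2 ribosomal protein genes called higher among 78 tested, against 407 of all 13484 genes. With all 6 libraries its adjusted p was 0.190, and reads cannot tell its coding sequence from that of Rps27, at 32.7, 36.3 and 35.3 FPKM in WT and 29.5, 45.5 and 44.1 FPKM in Hemgn-/- libraries. The groups of Rpl12 and Rpl30, both of the large subunit and named after their values were seen, did not overlap and were higher in Hemgn-/- libraries. Among the 79 genes, 2 were of this kind and 3 (Rps3a1, Rpl15 and Rpl34) had all Hemgn-/- libraries below all WT libraries, against 19.2% and 8.18% of all genes tested.

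Paralogs with a known role apart from their partners did not pass the test. Rpl22, a large subunit protein needed for T cell development, was at 3.32, 5.28 and 4.08 FPKM in WT and 4.78, 6.63 and 6.12 FPKM in Hemgn-/- libraries (adjusted p = 0.225 from limma). Rpl22l1, its paralog with 70.9% identity over the aligned coding bases, was at 2.95, 3.42 and 2.87 FPKM and at 2.86, 3.59 and 3.64 FPKM (log2 fold change 0.09, SE 0.14). The groups of both overlapped. Rps27l, a p53-induced paralog of Rps27, was at 27.0, 23.6 and 29.7 FPKM in WT and 20.5, 28.1 and 31.7 FPKM in Hemgn-/- libraries (log2 fold change −0.02, SE 0.16). Rpl7l1, a paralog of Rpl7, was at 72.7 to 88.1 FPKM in WT and 74.6 to 77.1 FPKM in Hemgn-/- libraries, above the 7.59 to 13.5 FPKM of Rpl7 itself in all libraries. Rpl36al was at 1.04 to 1.99 FPKM in WT and 0.889 to 1.55 FPKM in Hemgn-/- libraries.

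Among the 19 ribosomal protein genes of Diamond-Blackfan anemia, 0 were called by limma in either direction (adjusted p under 0.05), against 6.46% of all genes. At an unadjusted p under 0.05, 0 were higher and 1, Rpl15, was lower, against 15% and 6.46% of all genes. With voom, Rpl15 was called lower. Their median log2 fold change was 0.16, with 17 of 19 above 0, against 63.0% of all genes. Rps19 was at 4.64, 3.31 and 5.25 FPKM in WT and 3.08, 5.55 and 5.20 FPKM in Hemgn-/- libraries (log2 fold change 0.04, SE 0.21). Rpl5 was at 11.2, 12.1 and 10.7 FPKM in WT and 10.8, 13.9 and 13.7 FPKM in Hemgn-/- libraries (log2 fold change 0.16, SE 0.12). Rpl11, which with Rpl5 and 5S rRNA binds Mdm2 and so stabilizes p53, was at 15, 16.9 and 13.9 FPKM in WT and 12.4, 20.002 and 17.5 FPKM in Hemgn-/- libraries (log2 fold change 0.10, SE 0.16). In these 3 genes the Hemgn-/- values spread around the WT values, with Hemgn-/- replicate 1 at or near the bottom.

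The 3 tested genes of the lowest mean level were Rpl23a, Rps21 and Rpl38, at 5 to 25 fragments in a library. Rpl23a, at the exit tunnel, was at 0.256 to 0.798 FPKM in WT and 0.361 to 1.08 FPKM in Hemgn-/- libraries. Rps21, a small subunit protein, was at 0.417 to 1.16 FPKM in WT and 0.315 to 0.896 FPKM in Hemgn-/- libraries. Rpl38, known for its part in the translation of Hox mRNAs, was at 0.360 to 0.865 FPKM in WT and 0.705 to 1.60 FPKM in Hemgn-/- libraries. The groups overlapped in these genes, whose log2 fold changes had standard errors of 0.25 to 0.27, so small differences could be missed.

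The ribosomal protein genes moved together between replicates of a group. Taken as log2(FPKM + 1) minus the mean of the gene's own group, the 79 genes had medians of −0.023, 0.11 and −0.075 in WT replicates 1 to 3. In Hemgn-/- replicates 1 to 3 the medians were −0.28, 0.20 and 0.067. Hemgn-/- replicate 1 was the lowest and replicate 2 the highest library of its group for most of these genes. In Hemgn-/- replicate 1, 75 of the 79 genes lay below the group mean, and in replicate 2, 69 lay above it. Both subunits did so, with medians of −0.29 and 0.25 in Hemgn-/- replicates 1 and 2 for the small subunit and −0.28 and 0.20 for the large subunit. Replicate 1 was the lowest of its group in 70 of the 79 genes (88.6%), against 35.8% of all genes tested and 14 of 38 translation factors (36.8%).

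The medians of all genes tested lay from −0.0062 to 0.0083 and those of 38 translation factors from −0.021 to 0.014 in every library. Mitochondrial ribosomal proteins had medians of −0.073 and 0.11 in Hemgn-/- replicates 1 and 2. The ratio of Hemgn-/- replicate 2 to replicate 1 had a median of 1.48 over the 79 genes, with quartiles of 1.29 and 1.64, and of 1.00 over all genes. Within-group SDs on the log2 scale had a median of 0.245 for the ribosomal protein genes and 0.184 for all genes. In Hemgn-/- replicates 1, 2 and 3 the median deviations of neutrophil markers were −0.15, 0.12 and 0.022, those of erythroid markers −0.19, 0.28 and 0.028, and those of T and NK cell markers −0.14, 0.080 and 0.030. In WT replicate 2, where ribosomal protein genes were high, these 3 lists were at −0.056, −0.17 and −0.076. Of 10 neutrophil markers, 7 lay below their group mean in Hemgn-/- replicate 1 and 3 above it. S100a9 (522 exon bases) was at 6340, 9539 and 8268 FPKM in Hemgn-/- replicates 1 to 3, and Ltf (3450 exon bases) at 6538, 5931 and 6153 FPKM. The shift was thus not limited to ribosomal protein genes. The part of other cells, of RNA quality or of transcript length in it was not tested.

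**Figure D4:**
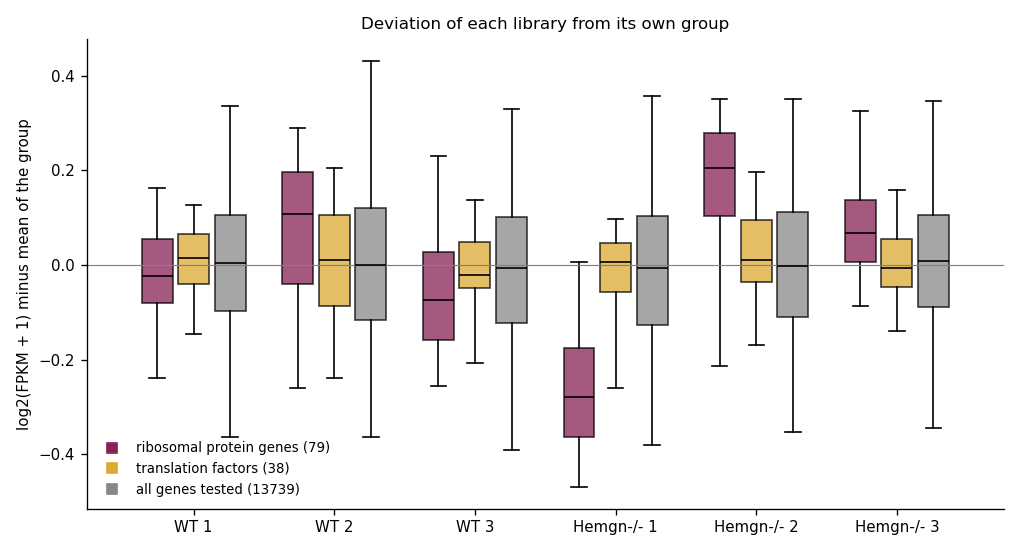
Log2(FPKM + 1) minus the mean of the gene's own group, for 79 ribosomal protein genes, 38 translation factors and all 13739 genes tested in each library (box, quartiles and median; whiskers, 5th to 95th percentile). The ribosomal protein genes are centered on −0.28 in Hemgn-/- replicate 1 and on 0.20 in replicate 2, while the medians of the translation factors and of all genes lie near 0 in every library.

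The start of the mRNA was examined for the letters of the TOP motif, as a feature that the choice by name did not use. RefSeq promoters on GRCm38.p6 were found for 64 of the 84 genes, 76 promoters in all. A C followed by at least 5 further pyrimidines (C or T), beginning within 10 bases of the annotated start on the coding strand, was present in 35 of the 76 promoters (46.1%), and in 34 of the 64 genes at 1 or more starts (53.1%). It was present in 19.2% of all 32851 promoters of the table. On the other strand the same search gave 7.89% of the ribosomal protein promoters and 22.2% of all promoters. Annotated starts can lie away from the bases where transcripts begin, and no match says only that the letters are not in this window. Windows from 10 bases before the start to the 20th base of the transcript are shown for both called genes and for genes described above, with the run in capitals where there was one.
Rpl34 (chr3:130730379-130730408, minus strand): tccctgacgtaCTTCCTgtccggcgccgtc
Rpl15 (chr14:18270967-18270996, minus strand): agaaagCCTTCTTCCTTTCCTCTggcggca
Rps6 (chr4:86857348-86857377, minus strand): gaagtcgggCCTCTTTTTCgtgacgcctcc
Rpl12 (chr2:32961702-32961731, plus strand): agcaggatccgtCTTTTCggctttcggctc
Rps27rt (chr9:114982720-114982749, minus strand): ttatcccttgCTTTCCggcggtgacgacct
Rps3a1 (chr3:86142649-86142678, minus strand): gccggaagggcgaaagagcaagggtcacgt
Rpl4 (chr9:64173377-64173406, plus strand): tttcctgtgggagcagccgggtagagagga
Rplp0 (chr5:115559457-115559486, plus strand): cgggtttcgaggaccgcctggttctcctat
The run was present in Rpl34 and Rpl15, lower in all Hemgn-/- libraries, and in Rpl12, higher in all of them. It was absent from this window of Rps3a1, Rpl4 and Rplp0. A further annotated start of Rpl34 also held it.

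Fau, which encodes a core protein of the small subunit, and Rack1, a stable partner of the small subunit, fall outside the name rule. Fau was at 33, 29.2 and 28.9 FPKM in WT and 27.3, 38.5 and 37.3 FPKM in Hemgn-/- libraries (log2 fold change 0.16, SE 0.13). Rack1 was at 18.5, 17.9 and 17.1 FPKM in WT and 17.6, 21.7 and 18.7 FPKM in Hemgn-/- libraries (log2 fold change 0.10, SE 0.10). Neither was called, and Hemgn-/- replicate 1 was the lowest of its group for both.

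Translation factors, which load and move the ribosome, had a median log2 fold change of 0.083 over 38 tested genes. Of these, 1 was called higher and 1 lower, 5.26% in all, against 4.37% and 2.09% of all genes, 6.46% in all. Eif4b, a cofactor of the helicase that unwinds mRNA, rose from 35.0, 34.1 and 35.3 FPKM in WT to 44.3, 44.4 and 43.6 FPKM in Hemgn-/- libraries (log2 fold change 0.33, SE 0.07, adjusted p = 0.0265 from limma). Eif3e, a subunit of the factor that binds the 40S subunit, fell from 108, 109 and 103 FPKM to 72.9, 80.5 and 75 FPKM (log2 fold change −0.48, SE 0.07, adjusted p = 0.00531 from limma). For both, the groups did not overlap. The call of Eif3e was lost without a variance trend (adjusted p = 0.0569 from limma). The call of Eif4b was lost under median-ratio scaling (adjusted p = 0.107 from limma), under quantile scaling, without a variance trend and without any 1 of the 6 libraries. Eef1a1, the elongation factor that brings tRNA and itself a TOP mRNA, was at 1177, 1321 and 967 FPKM in WT and 1295, 1577 and 1515 FPKM in Hemgn-/- libraries (log2 fold change 0.35, adjusted p = 0.131 from limma), and was called only with FPKM totals made equal (adjusted p = 0.0482). Eef2 was at 78.6 to 95 FPKM in WT and 92.1 to 107 FPKM in Hemgn-/- libraries, and Tpt1, another TOP mRNA, at 36.3 to 38.0 and 36.5 to 43.5 FPKM. Neither was called.

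Factors of ribosome assembly in the nucleolus had a median log2 fold change of 0.21 over 76 tested genes, against 0.087 over all genes. Of the 76, 7 were called higher and 0 lower by limma, against 4.37% and 2.09% of all genes. At an unadjusted p under 0.05, 32 of the 76 were higher and 2 lower, against 15% and 6.46% of all genes, and the difference from all genes was not tested. Mybbp1a, a nucleolar protein of pre-rRNA processing, rose from 23.1, 18.2 and 21.4 FPKM in WT to 32.1, 36.8 and 36.0 FPKM in Hemgn-/- libraries (log2 fold change 0.72, adjusted p = 0.00596 from limma). Heatr1, of the small subunit processome, rose from 5.49, 4.27 and 5.54 FPKM to 8.13, 7.67 and 8.51 FPKM (log2 fold change 0.58, adjusted p = 0.0282 from limma). Nat10, which acetylates 18S rRNA, rose from 4.13, 4.09 and 4.08 FPKM to 6.77, 6.49 and 6.46 FPKM (log2 fold change 0.57, adjusted p = 0.0157 from limma). In all 3 every Hemgn-/- library was above every WT library. The call of Mybbp1a held in every alternative run, whereas the adjusted p from limma reached 0.113 for Heatr1 and 0.0638 for Nat10, both without Hemgn-/- replicate 3. Npm1, the abundant nucleolar chaperone, was at 36.1 to 41.7 FPKM in WT and 39.1 to 49.5 FPKM in Hemgn-/- libraries (log2 fold change 0.16, SE 0.11). The number called higher depended on the scaling, with 2 under median-ratio scaling and 16 with FPKM totals made equal, and on single libraries, with 1 or 2 when any 1 of the 6 was left out. The number over all 13739 genes moved too, from 600 to 341 under median-ratio scaling and 1062 with totals made equal. With a library left out it ran from 223 of 13507 genes (Hemgn-/- replicate 3) to 451 of 13511 (WT replicate 2).

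The machinery of RNA polymerase I, which makes rRNA, had a median of 0.15 over 14 genes, with 0 called in either direction by limma, 4 higher and 0 lower at an unadjusted p under 0.05 (15% and 6.46% of all genes). Of 23 genes of growth signalling and regulators of ribosomal protein synthesis, 1 (4.35%) was called, against 6.46% of all genes. This was Myc, which drives transcription of ribosomal genes. It rose from 49.6, 47.6 and 53.6 FPKM in WT to 72.2, 68.8 and 69.6 FPKM in Hemgn-/- libraries (log2 fold change 0.48, SE 0.07, adjusted p = 0.00766 from limma), a call lost without a variance trend (0.0609). Larp1, which binds TOP mRNAs, was at 4.31 to 5.54 FPKM in WT and 5.15 to 6.44 FPKM in Hemgn-/- libraries (log2 fold change 0.20, SE 0.13). The proteins of the mitochondrial ribosome, a separate machine, had a median of 0.034 over 72 tested genes. Of these, 1 was called higher and 1 lower, 2.78% in all, against 4.37% and 2.09% of all genes, 6.46% in all. Mrpl24 fell from 20.5, 17.1 and 20.4 FPKM to 11.5, 10.1 and 11.1 FPKM (log2 fold change −0.77, adjusted p = 0.00450 from limma), and Mrpl52 rose from 0.838, 1.41 and 1.04 FPKM to 2.56, 2.62 and 2.59 FPKM (log2 fold change 0.79, adjusted p = 0.0275 from limma). The groups of both did not overlap. The call of Mrpl24 held in every alternative run, and that of Mrpl52 was lost in 8 of them (adjusted p up to 0.103 from limma).

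**Figure D5:**
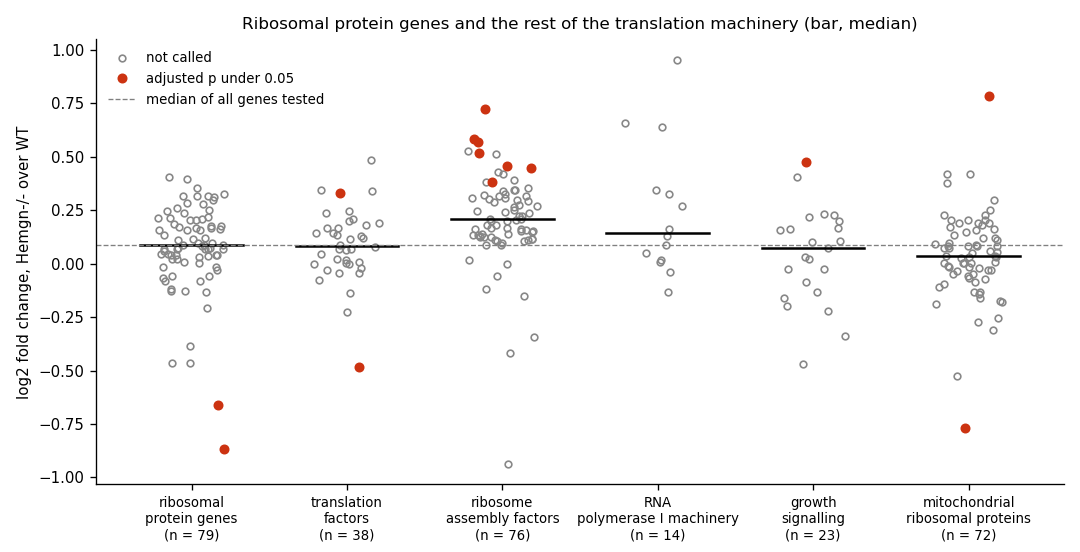
Log2 fold change of Hemgn-/- over WT for each tested gene of 6 lists, with filled points for an adjusted p under 0.05, a bar at the median of each list and a dashed line at the median of all genes tested. The ribosomal protein genes (median 0.086) have 2 filled points, both below 0, and the assembly factors (median 0.21) have 7, all above 0.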

How the data were processed

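RNA-seq of donor HSPCs at 6 h post-BMT was analysed from 3 WT and 3 Hemgn-/- libraries, grouped by the genotype in the labels. Values were deposited by the authors as FPKM, with 1 column for each library, and no further scaling between libraries was stated. The submitters' processing notes name HISAT2 2.1.0, Bowtie2 2.2.3, TopHat2, HTSeq 0.6.0 and GRCm38, with no role or order, and the annotation and the treatment of reads with several matches were not given in the sources used here. No column of values was left unmapped (0 columns). Symbols, coordinates and lengths came from GENCODE M21, which 24921 of 24965 genes matched, and promoters from RefSeq.

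Depth was recovered from whole-fragment steps: among 13472 low genes (100 fragments or fewer in each library), 95.7% gave whole numbers in all 6 (tolerance 0.05 fragments). Fragments of amplified cDNA are not independent molecules. Genes above 1 FPKM in at least 1 library were compared as log2(FPKM + 1) with limma 3.58.1 in R 4.3.3 (lmFit, eBayes with a trend, no covariate, two-sided, Benjamini-Hochberg over all genes tested, threshold 0.05). An exact permutation test of 3 against 3 libraries cannot give a two-sided p under 0.1. Copies were genes sharing an exact 50-base window of coding sequence. Named copies carry the gene's symbol with -ps or a number, and sums weighted each copy's FPKM by its length over that of the gene. Alternatives were a pseudocount of 0.1, 2 other filters, median-ratio, TPM and quantile scaling, no trend, the replicate number as a block, each library left out, voom on recovered fragments and sums with named copies. Sums with all copies by sequence were added after seeing the data. The fits were also run on simulated fragments with known changes, in which genes varied independently at the same dispersion. A shift between replicates shared by the ribosomal protein genes was not simulated. Other steps used Python 3.11.15.

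The genes, gene lists and named genes were chosen with earlier results of these data known. Named genes are Hemgn, the called genes, the 5 highest and 3 lowest tested genes, copies of Rps3a1, paralogs, Rpl5, Rpl11, Rps19, genes at or under 1 FPKM, Fau, Rack1, up to 3 called genes per list and direction, Eef1a1, Eef2, Tpt1, Npm1, Myc and Larp1. Another named gene is not reported here. Rpl15, Rpsa, Rpl12, Rpl30, Rplp1, Rpl7, Rpl7a, Rpl10, Rpl28, Rps27 and the pseudogenes other than Rps3a2 and Rps3a3 were named after their values were seen, and so were the cell type markers named.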

Additional observations from a re-analysis of the deposited data

How the results depend on the processing

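Same-numbered WT and Hemgn-/- libraries did not deviate together over all genes (correlations of −0.043, −0.0094 and 0.011 for replicates 1, 2 and 3), and over the ribosomal protein genes the correlations were −0.044, 0.41 and 0.44. Between libraries of unlike number, the correlations over the ribosomal protein genes ran from −0.52 (WT replicate 2 and Hemgn-/- replicate 3) to 0.25 (WT replicate 1 and Hemgn-/- replicate 3). Not every pair of the same number was above 0.1, so the libraries were taken to share only a number. These few correlations cannot settle whether the libraries were paired. With the replicate number as a block, 636 of all genes were called in place of 887, the ribosomal protein genes called were 0 higher and 3 lower, 7 genes of the pathway lists were called in place of 12, and 2 assembly factors in place of 7.

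No ribosomal protein gene was called higher except without Hemgn-/- replicate 1, so the count ran from 0 to 2 with a library left out. Of all genes, 223 to 451 were called higher with a library left out, and 407 of 13484 without Hemgn-/- replicate 1. The count called lower was 1, Rpl34, with all genes above 0 FPKM, without a trend and with either sum over copies, and ran from 1 to 3 with a library left out. In the same order, 157, 153, 285 or 290, and 150 to 237 of all genes were called lower. The median log2 fold change ran from 0.0028 to 0.24 with a library left out.

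Of 12 genes called in the pathway lists, 7 were called with all genes above 0 FPKM, 7 after median-ratio scaling, 6 after quantile normalization, 4 without a trend, 29 after rescaling to the same total, and 4 to 8 with a library left out. In the same order, 466 (of 24965 tested), 727, 714, 390, 1300 and 373 to 688 of all genes were called, against 887 in the fit described above. Assembly factors called higher numbered 3 with all genes above 0 FPKM, 2 after median-ratio or quantile scaling, 2 without a trend, 16 after rescaling to the same total, and 1 to 2 with a library left out. In the same order, 309, 341 or 368, 237, 1062 and 223 to 451 of all genes were called higher, against 600 in the fit described above. The log2 fold change of Hemgn ran from −1.58 to −1.20 with a library left out, and its adjusted p from limma was 0.0613 with all genes above 0 FPKM (log2 fold change −1.37). The cause of these changes was not tested. With voom, 1049 genes were called.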
